A study of Mus musculus with 12 samples.

Results

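S100a8, S100a9, S100a4, S100a6, S100a10 and S100a11 are the 6 genes described here, out of 11911 genes in a table of mouse (Mus musculus) cardiac neutrophil RNA-seq. They are the rows of that table whose symbol is a listed member of the S100 family, and the rule names them without a threshold on any measured value, although earlier results of these data were known when they were listed. There were 12 libraries of left ventricular neutrophils, of which controls 2, 6, 7, 8, 11 and 12 (6 libraries) have control as their genotype and LOY 3, 4, 5, 10, 14 and 15 (6 libraries) have LOY. The titles of both groups carry the words control and BMT and the treatment is given as control throughout, so the groups share these conditions and genotype is the label that separates them. Each library came from 800 cells gated as CD45.2+, Ly6G+, CD64- and RFP+, so the sorted cells of both groups carried red fluorescent protein (RFP). The labels used here do not give how the LOY genotype was made, nor the strain, age and number of the mice. Nor do they tie each library to its own animal, and p-values therefore reflect variation among libraries, which may be technical.

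S100 proteins are small calcium-binding proteins with a pair of EF-hand loops, found only in vertebrates. S100A8 and S100A9 pair into calprotectin, which makes up a large part of the protein of the neutrophil cytoplasm, binds zinc and manganese, and is released at sites of injury. Outside the cell it acts as an alarmin, a danger signal read by TLR4 and RAGE on other cells. S100A4, S100A6, S100A10 and S100A11 act mostly inside the cell on the cytoskeleton and on membranes: S100A4 binds non-muscle myosin, S100A10 and S100A11 bind annexins, and S100A6 binds calcyclin-binding protein.

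All 6 genes lie on mouse chromosome 3 (GRCm38, GENCODE M21). S100a4 (90603771 to 90606045), S100a6 (90612882 to 90624181) and S100a8 (90668978 to 90670035) are on the plus strand. S100a9 (90692632 to 90695721) is on the minus strand, next to S100a8. S100a11 (93520488 to 93526287) and S100a10 (93555080 to 93564643) form a second group on the plus strand of the same chromosome. The Ensembl identifiers in the table are ENSMUSG00000056054 for S100a8, ENSMUSG00000056071 for S100a9, ENSMUSG00000001020 for S100a4, ENSMUSG00000001025 for S100a6, ENSMUSG00000041959 for S100a10 and ENSMUSG00000027907 for S100a11.

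The sequences before the start sites of the 4 genes whose levels moved together across libraries are shown. Whether these sequences bear on the shared order of levels was not tested. They are from RefSeq (GRCm38.p6), 5′ to 3′ on the strand of the gene, and run from 250 bases before the RefSeq start. For S100a8, S100a6 and S100a11 the last 93, 12 and 8 bases were left off because GENCODE M21 places an exon there. Capitals mark matches, on either strand, to TTGCNNAA (C/EBP type), TGANTCA (AP-1), GGAAGT (the core read by ETS factors such as PU.1), the NF-kB type pattern (GGG and CC with any 5 bases between) and TATAAA, the last of these chosen after the sequences were read. Neighbouring capitals can belong to more than 1 match.
S100a8, chr3:90668821-90668977, plus strand: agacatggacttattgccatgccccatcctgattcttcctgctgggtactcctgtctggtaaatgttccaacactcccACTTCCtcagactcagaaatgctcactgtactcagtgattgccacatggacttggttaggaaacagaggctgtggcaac
S100a9, chr3:90695722-90695971, minus strand: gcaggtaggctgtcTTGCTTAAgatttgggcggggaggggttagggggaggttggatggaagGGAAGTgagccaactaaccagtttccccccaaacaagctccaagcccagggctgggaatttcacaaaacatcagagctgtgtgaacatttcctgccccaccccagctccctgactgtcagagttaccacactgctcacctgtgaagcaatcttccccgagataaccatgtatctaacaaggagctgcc
S100a6, chr3:90612644-90612881, plus strand: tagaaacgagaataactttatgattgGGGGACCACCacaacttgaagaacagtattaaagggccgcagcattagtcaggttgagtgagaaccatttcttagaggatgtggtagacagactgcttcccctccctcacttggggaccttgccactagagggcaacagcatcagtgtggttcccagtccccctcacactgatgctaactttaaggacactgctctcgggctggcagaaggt
S100a11, chr3:93520246-93520487, plus strand: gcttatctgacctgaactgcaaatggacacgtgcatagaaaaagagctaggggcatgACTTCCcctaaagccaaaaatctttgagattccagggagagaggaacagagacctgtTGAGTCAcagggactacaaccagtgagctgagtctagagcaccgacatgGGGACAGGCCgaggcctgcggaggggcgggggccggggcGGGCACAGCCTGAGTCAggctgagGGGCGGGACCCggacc

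The alarmin pair shared GGAAGT and TATAAA, but these were not particular to the pair. S100a4, whose sequence is not shown, held TATAAA 31 bases before its start and ACTTCC from base 18, counting the start as base 1. S100a9 held GGAAGT 188 bases before its start, and S100a8 held it on the other strand (ACTTCC) 172 bases before its start. GGAAGT was present, on either strand, in the 250 bases before the start of 19.7% of 32851 RefSeq promoters. The C/EBP type pattern was found in S100a9 (TTGCTTAA, 236 bases before the start) and was present in 9.56% of these upstream stretches. S100a11 held TGAGTCA at 136 and 38 bases before its start, a pattern with a match in 6.75% of them, and ACTTCC at 193 bases. The NF-kB type pattern, matched in S100a6, S100a11 and S100a4, was present in 45.8%. TATAAA stood 30 bases before the S100a8 start, in the bases left off above. In S100a9 it began at the start base itself, which the sequence above does not reach. TATAAA was present in 12.4% of the upstream stretches on either strand, and in 2.49% with a forward match that began 50 to 11 bases before the start. It was present in 13.6% of windows that also take in the 50 bases from the start on. A match is a description of letters and not a bound site.

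Values are normalised reads, in which the reads of a gene were scaled by a single factor for its library. The 12 libraries had 6767108 to 12561174 reads over the listed genes. The neutrophil label was checked against marker genes. Csf3r, the G-CSF receptor, had 45579 ± 18679 normalised reads (SD, n = 6) in control and 42022 ± 14469 (SD, n = 6) in LOY libraries, and the 20 neutrophil markers summed to between 200271 and 275473 in control and between 193293 and 305107 in LOY libraries. Ly6g, which encodes the antigen of the sort, was low (436 ± 391 in control, 185 ± 244 in LOY, SD, n = 6 each). Fcgr1, which encodes the CD64 that the sort left out, had 35.4 ± 50.7 and 184 ± 157 (SD, n = 6 each). The genotype was checked with the Y-linked gene Ddx3y, which ran from 399.7 to 1341 normalised reads in control libraries and from 0 to 51.6 in LOY libraries.

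The alarmin genes were among the most abundant transcripts in every library. S100a9 ranked between 2 and 13 among the listed genes by normalised reads, and S100a8 between 5 and 20. Together S100a8 and S100a9 took 1.26% (LOY 3) to 5.62% (control 8) of the reads of the listed genes. Their mean share was 2.90% ± 1.47 (SD, n = 6) in control and 2.24% ± 0.75 (SD, n = 6) in LOY libraries. They supplied 85.3% to 92.0% of the reads of the 6 genes in each library.

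Levels between genes were compared per kilobase of the protein-coding mRNA that the annotation marks as principal, or the longest where it marks several. Over all 12 libraries S100a9 had a mean of 218937 ± 106402 normalised reads per kilobase (SD, n = 12) and S100a8 had 194363 ± 120721. S100a11 followed with 37057 ± 14657 and S100a6 with 10321 ± 4378 on the same scale. S100a10 had 443 ± 521 and S100a4 had 78.7 ± 203, so the members, as counted, spanned from the most abundant mRNAs to the edge of detection. The S100a4 level is uncertain, because its exons overlap those of another transcript, Gm42674. The order was not fixed between neighbours at both ends. S100a9 was above S100a8 per kilobase in 11 of 12 libraries, with control 8 the exception, and S100a10 was above S100a4 in 10 of 12. S100a8 was above S100a11, and S100a11 above S100a6, in 12 of 12 libraries. Dividing by the length of all annotated exons in place of the principal mRNA gave the same order of means.

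**Figure D1:**
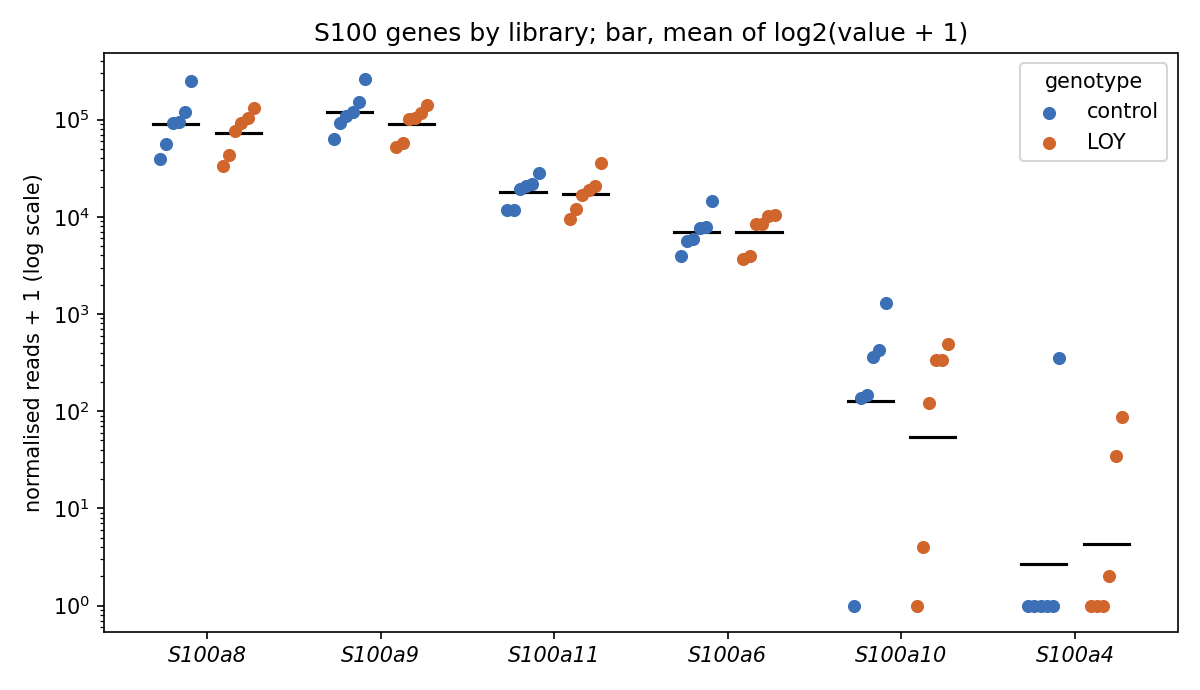
Normalised reads + 1 (log axis) of the 6 genes, 1 point per library, 6 control (blue) and 6 LOY (orange) libraries; bars are means of log2(value + 1), with no error drawn. The points of both genotypes overlap for each gene, and control 8 is the highest control library for all 6 genes.

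S100a8, the partner that S100A9 needs to form calprotectin, ranged widely within both genotypes. In control libraries its lowest, median and highest values were 39003 (control 11), 93242 and 251270 (control 8) normalised reads. In LOY libraries they were 33611 (LOY 3), 84911 and 131741 (LOY 15). The groups overlapped, with 5 of 6 LOY libraries inside the control range and 1 below it. Means were 108680 ± 75591 in control and 80240 ± 37062 in LOY libraries (SD, n = 6 each).

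S100a9, which carries the longer tail of the pair, followed the same order of libraries at the extremes. Its lowest, median and highest control values were 62518 (control 11), 113910 and 259274 (control 8) normalised reads. The LOY values were 52749 (LOY 3), 101878 and 140990 (LOY 15). Here 4 of 6 LOY libraries lay inside the control range, and LOY 3 and LOY 10 lay below it.

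S100a11, which binds annexin A1 and A2 and takes part in membrane repair, was the most abundant of the other 4 genes. Control values ran from 11759 (control 2) over a median of 20091 to 28416 (control 8), and LOY values from 9592 (LOY 3) over 17908 to 35378 (LOY 15) normalised reads. The group means nearly coincided, at 18946 ± 6371 in control and 18926 ± 9101 in LOY libraries (SD, n = 6 each). Processed pseudogenes of S100a11, among them Gm12854 (98.99% identical over 297 bases) and Gm7665 (98.65%), are also listed in the table, so the assignment of S100a11 reads is uncertain.

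S100a6, calcyclin, had control values from 3969 (control 11) over a median of 6752 to 14443 (control 8). Its LOY values ran from 3660 (LOY 3) over 8367 to 10531 (LOY 15) normalised reads. The means were 7567 ± 3662 in control and 7522 ± 3020 in LOY libraries (SD, n = 6 each), with overlapping groups.

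S100a10, the p11 subunit of the annexin A2 tetramer at the plasma membrane, was much sparser. Its control values were 0 (control 7), a median of 255 and 1296 (control 8), and its LOY values 0 (LOY 4), a median of 226 and 485 (LOY 15) normalised reads. LOY 5 had 2.97 normalised reads, which is 3 reads, so 3 of 12 libraries were at or near nothing while the other 9 had between 120 and 1296. A count of 0 allows up to 2.49 normalised reads in control 7 and 3.49 in LOY 4, counting 3 reads as the limit for counting error only. Its partner Anxa2 stood at 17144 ± 3828 in control and 14547 ± 3436 in LOY libraries (SD, n = 6 each).

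S100a4, known from fibroblasts, macrophages and migrating cells, was detected in 4 of 12 libraries. It had 350 normalised reads (276 reads) in control 8 and 0 in the other 5 control libraries. In LOY libraries it had 86.1 (74 reads) in LOY 4, 33.8 (48 reads) in LOY 3 and 1.03 (1 read) in LOY 15, and 0 in LOY 5, 10 and 14. Counting error alone allows up to between 1.70 and 3.15 normalised reads in the libraries at 0. S100a4 shares exon sequence with the overlapping transcript Gm42674 (100% over 302 bases), which lies on the same strand. Its values may therefore include reads of that transcript or lack reads that the 2 share. How such reads were counted was not tested, so the values at 0 are uncertain too.

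The study compared LOY with control neutrophils, and none of the S100 genes tested differed between the genotypes beyond the spread between libraries. The test was limma on log2(normalised reads + 1) over the 6951 genes that reached 10 normalised reads in 6 or more libraries, with Benjamini-Hochberg adjustment over all of them. Of the 6 genes, 5 passed that filter, and 0 of 5 were called at an adjusted p of 0.05, beside 0.0288% of all genes tested (2 of 6951). By direction, 0 of 5 were higher and 0 of 5 lower in LOY libraries, beside 0.0144% and 0.0144% of all genes. The genotypes overlapped for 6 of 6 genes, and were apart for 0.201% of all genes tested. The log2 fold change was below 0 for 5 of 5, beside 49.6% of all genes, but was above 0 for S100a8, S100a6 and S100a11 under quantile normalization and for S100a6 and S100a11 in edgeR. At an unadjusted p under 0.05 the count was also 0 of 5, beside 4.37% of all genes tested. DESeq2 and edgeR on the recovered reads called 0 of the 5 genes that each gave an adjusted p, beside 3.12% and 0.0% of the genes they tested (10.1% and 1.84% at an unadjusted p under 0.05).

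For S100a9 the log2 fold change, LOY minus control, was -0.42 (SE 0.32, 95% interval -1.10 to 0.27, limma adjusted p 0.997). For S100a8 it was -0.33 (SE 0.42, interval -1.24 to 0.57, limma adjusted p 0.999). The interval of S100a8 runs from 2.36-fold lower to 1.48-fold higher in LOY libraries, and that of S100a9 from 2.14-fold lower to 1.20-fold higher, so differences within these bounds were not excluded. Without control 8, the library with the highest alarmin reads, the values came to -0.04 for S100a8 and -0.19 for S100a9.

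The log2 fold change was -0.06 for S100a11 (SE 0.31, interval -0.72 to 0.61) and -0.0088 for S100a6 (SE 0.35, interval -0.76 to 0.74). The intervals allow S100a11 to be up to 1.65-fold lower or 1.52-fold higher, and S100a6 up to 1.69-fold lower or 1.67-fold higher. S100a10 had -1.22 (SE 1.97, interval -5.43 to 3.00), an interval set by the libraries at or near 0. S100a4 passed the level of 10 in 3 libraries and was not tested with limma. Its means of log2(value + 1) were 1.41 in control and 2.10 in LOY libraries, although its mean normalised reads were 58.3 in control and 20.1 in LOY libraries, since 1 control library holds most of its reads. A two-sided exact permutation test over the 924 assignments of the 12 libraries gave p = 0.277 for S100a9, 0.504 for S100a8, 0.593 for S100a10, 0.848 for S100a4, 0.853 for S100a11 and 0.981 for S100a6, each 0.981 after adjustment over the 6 tests. In the authors' deposited table the log2 fold changes were -0.47 for S100a9, -0.44 for S100a8 and -0.90 for S100a10. They were -0.0085 for S100a6, -0.0015 for S100a11 and -1.53 for S100a4, the last with no p. At this rounding they equal the values of DESeq2 on the recovered reads, so the 2 are not separate results.

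**Figure D2:**
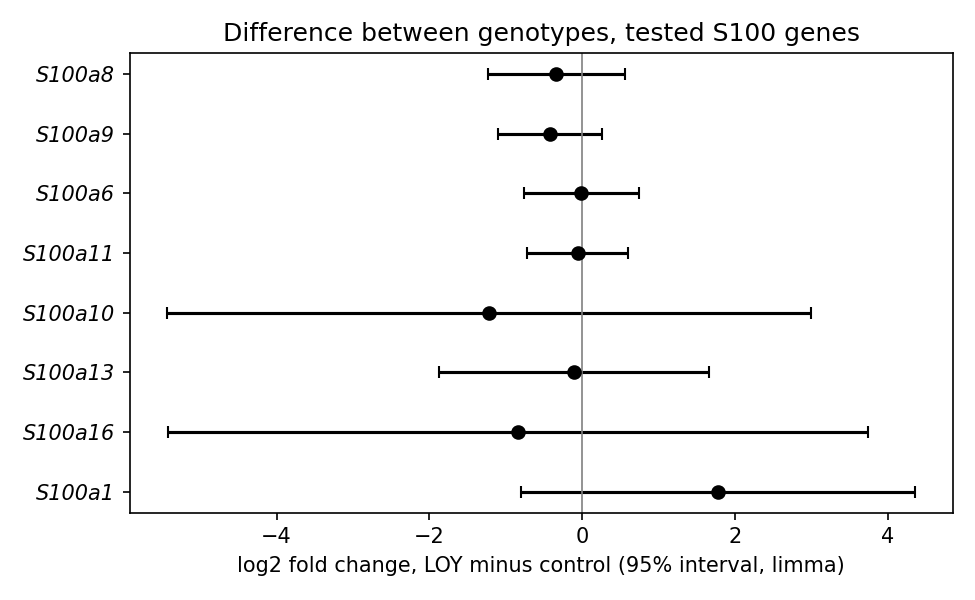
Log2 fold change, LOY minus control, with its 95% interval from limma (6 libraries per genotype), for the 5 members tested and for S100a13, S100a16 and S100a1. All 8 intervals cross 0, and those of S100a10, S100a16 and S100a1 are the widest of the 8.

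Markers of other heart cells stood beside this comparison. The 15 cardiomyocyte markers summed to between 4198 and 8326 normalised reads in control libraries (median 5864) and to between 4850 and 66133 in LOY libraries (median 13851). Of the 14 tested, 14 had a positive log2 fold change, 5 had an unadjusted p under 0.05 (4.37% of all genes tested did) and 0 were called after adjustment. Each of the 15 was above 0 in at least 1 library, and LOY 10, the library with the highest sum, was the second lowest for S100a9. The 9 endothelial markers in the table, of 10 listed, summed to between 1064 and 4079 in control and 2513 and 6264 in LOY libraries. The 9 fibroblast markers summed to between 389 and 2217 in control and between 508 and 9745 in LOY libraries. Of the endothelial markers 7 of 8 tested were positive (2 at an unadjusted p under 0.05), and of the fibroblast markers 6 of 6 (1 at an unadjusted p under 0.05), with 0 called in both lists. The 14 macrophage markers in the table, of 15 listed, include Lyz2, a gene that neutrophils also express. They summed to between 33384 and 57117 in control and 30351 and 84148 in LOY libraries. The 8 B cell markers summed to between 3263 and 12353 (control 8) in control and 2996 and 8887 in LOY libraries. Of the 7 tested, 1 was positive and 6 were negative, with 0 called. The 7 red cell and platelet markers in the table summed to between 13.6 and 9765 in control libraries (median 5019). In LOY libraries they summed to between 165 and 7385 (median 530). Of the 5 tested, 1 was positive and 4 were negative, with 0 called and 0 at an unadjusted p under 0.05 in limma. In these sorted bulk samples, fewer cells of a type and less RNA per cell cannot be told apart, and the part of other cells in the S100 values was not tested.

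The ratio of S100a8 to S100a9 varied less between libraries than either level, with an SD over 12 libraries of 0.24 for the log2 ratio, 0.83 for log2 S100a8 and 0.64 for log2 S100a9. S100a8 reached 0.603 (control 2) to 0.969 (control 8) of the normalised reads of S100a9, so S100a9 was the higher of the pair in 12 of 12 libraries before division by length. The log2 ratio was -0.39 ± 0.26 (SD, n = 6) in control and -0.31 ± 0.22 (SD, n = 6) in LOY libraries. The difference of 0.083 had p = 0.556 in a two-sided exact permutation test, whose smallest possible p is 0.00216. The 3 lowest ratios, 0.603 to 0.637, were in control 2, control 11 and LOY 3, and the highest were 0.934 in LOY 15 and 0.969 in control 8.

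The levels of S100a8, S100a9, S100a6 and S100a11 moved together from library to library in both genotypes. For S100a8 and S100a9 Pearson's r of log2 values was 0.98 and Spearman's rho 0.96 over 12 libraries, and r was 0.95 without control 8 and LOY 3, the libraries farthest from the median. S100a8 was the gene with the highest r to S100a9 among 4118 genes detected in all 12 libraries, whose median r was -0.03. S100a6 ranked 12 and S100a11 ranked 17 on that list. The other pairs among the 4 genes had r between 0.84 and 0.89 and rho between 0.71 and 0.82. Leaving out the 2 farthest libraries, r was 0.72 for S100a9 with S100a6, 0.78 for S100a9 with S100a11 and 0.81 for S100a6 with S100a11. With the group means removed, r was 0.99 for the alarmin pair and 0.87 to 0.91 for the rest. All these points share the library and its depth factor, and the correlations are descriptions.

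S100a10 and S100a4 stood outside this shared order. Over all 12 libraries their r with each of the other members lay between -0.15 and 0.37. The highest of these, S100a4 with S100a8, came to 0.29 without control 8 and LOY 3. The genotypes differed for S100a4 with the 4 abundant genes. Within control libraries, where only control 8 had S100a4 reads, r ran from 0.63 (S100a11) to 0.82 (S100a6). Within LOY libraries it ran from -0.37 (S100a11) to -0.10 (S100a9).

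**Figure D3:**
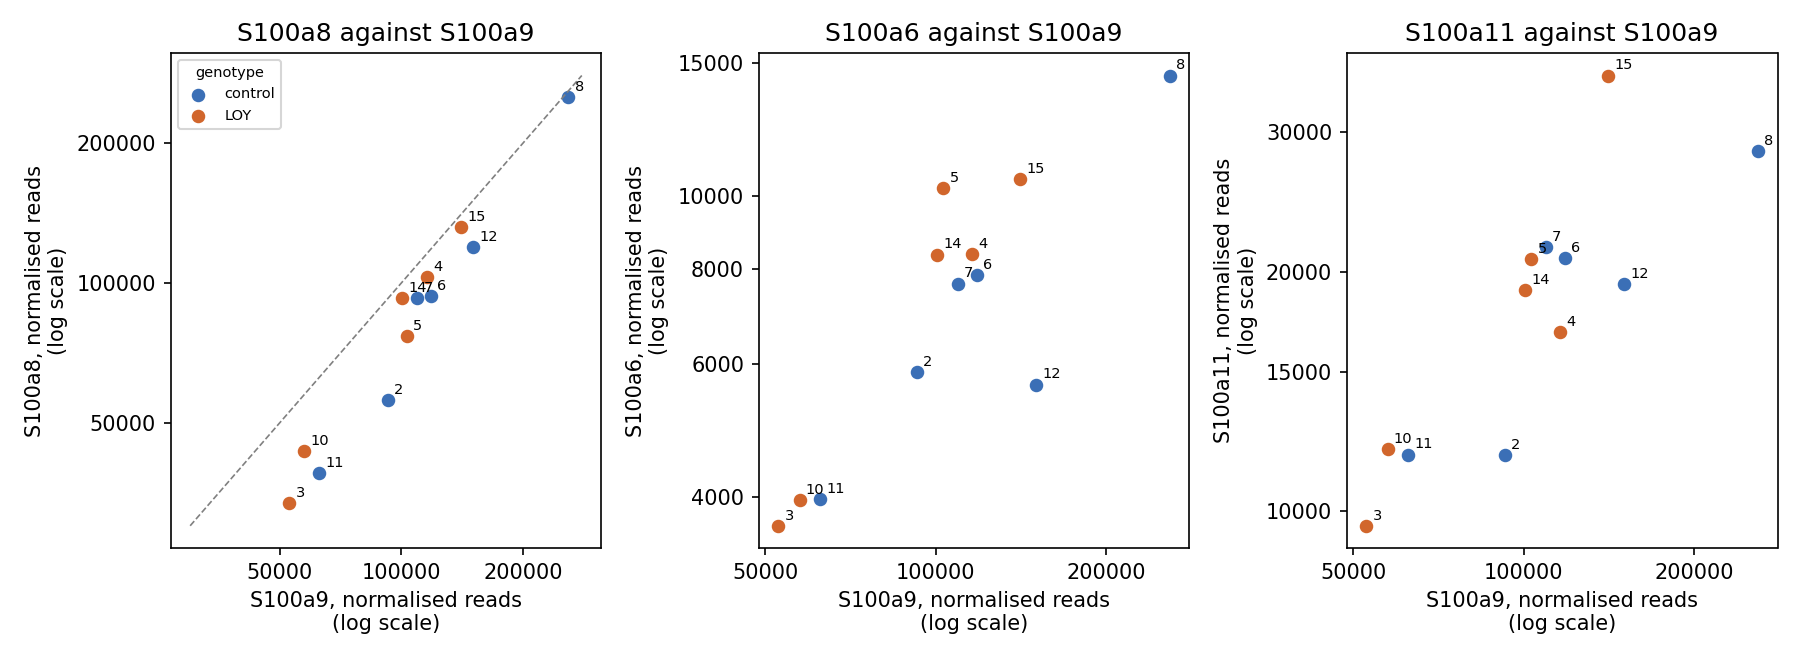
S100a8, S100a6 and S100a11 against S100a9, in normalised reads on log axes, 1 point per library with its number, control in blue and LOY in orange; the dashed line in the left panel marks equal values. Libraries of both genotypes rise together in each panel, with LOY 3 lowest on every axis and control 8 highest for S100a9. Control 12 lay above LOY 15 for S100a9 (150411 against 140990) but was low for S100a6 (5628 against 10531).

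The genes nearest to S100a9 by r, passing over members and genes with only a serial identifier, were Cd52 (0.94), Gmfg-ps (0.90), Coq10b (0.90), Atp6v1f (0.90) and Cox6c (0.89). Cd52 encodes a small surface glycoprotein of leukocytes, Atp6v1f a subunit of the vacuolar proton pump and Cox6c a subunit of cytochrome c oxidase. The genes nearest to S100a6 were Laptm4a (0.96), Atp6v1g1 (0.94), Txn1 (0.91), Ifi35 (0.91) and Dynlt1-ps1 (0.90), over 4118 genes with a median r of -0.05. Atp6v1g1 encodes another subunit of the same pump, and Txn1 encodes thioredoxin.

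The relation of likeness to mRNA length was examined after these nearest genes had been seen. The genes taken were the 2678, members aside, that were detected in all 12 libraries and had an annotated mRNA length. Among them the median r with S100a9 was 0.35 for 213 genes under 800 bases and 0.17 for 469 genes from 800 up to 1500 bases. It was -0.07 for 938 genes from 1500 up to 3000 bases and -0.13 for 1058 genes of 3000 bases or more. An r above 0.5 was found for 36.6% of the genes under 800 bases and for 3.97% of those of 3000 bases or more. The mRNAs of the 6 members are themselves short, from 486 bases (S100a8) to 731 bases (S100a6).

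**Figure D4:**
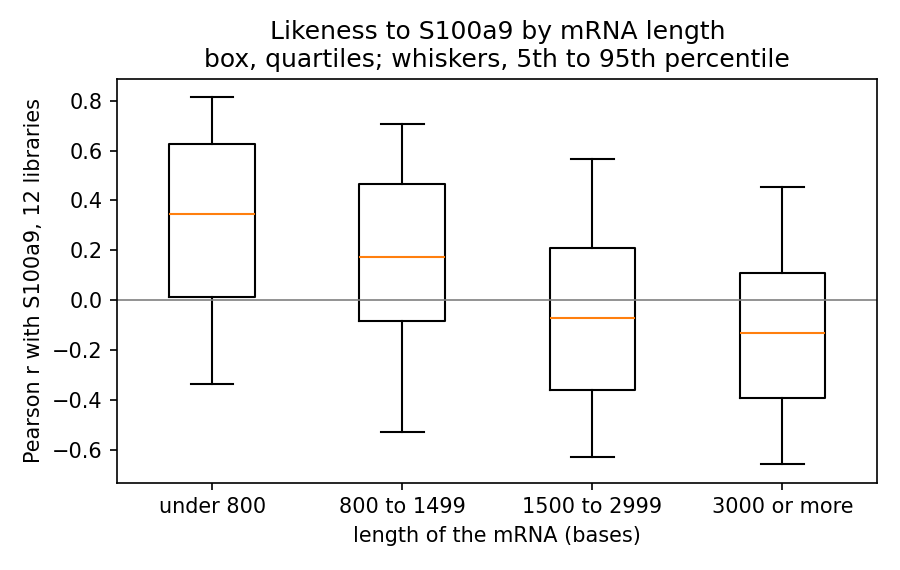
Pearson's r with S100a9 over 12 libraries (vertical axis) for genes detected in all 12 libraries, grouped by mRNA length in bases. Boxes are quartiles with the median line, and whiskers run from the 5th to the 95th percentile. The medians step down from 0.35 for genes under 800 bases to -0.13 for genes of 3000 bases or more.

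The share of normalised reads from other mRNAs under 800 bases moved with the S100 levels. It was lowest in LOY 3 (4.90%) and highest in control 8 (11.3%) and LOY 15 (10.1%), with medians of 6.47% in control and 6.30% in LOY libraries. Over 12 libraries its correlation with the log2 level was r = 0.88 and rho = 0.97 for S100a8, and r = 0.85 and rho = 0.92 for S100a9. For S100a11 it was 0.84 and 0.83, and for S100a6 0.76 and 0.76. Without LOY 15 and control 8, the libraries farthest from the median share, r was 0.91 for S100a8, 0.85 for S100a9, 0.80 for S100a11 and 0.60 for S100a6. The part of the short mRNAs in the shared order of the S100 genes, and in the wide spread of the alarmins, was not tested. The S100 levels also moved with other measures of the libraries, whose part was likewise not tested. The reads of the listed genes had an r of -0.63 with S100a8, -0.56 with S100a9, -0.67 with S100a6 and -0.47 with S100a11. The summed macrophage markers had an r of 0.72 with S100a11, 0.65 with S100a6, 0.46 with S100a8 and 0.45 with S100a9. The summed red cell and platelet markers had an r of 0.59 with S100a8 and 0.58 with S100a9, and the summed neutrophil markers 0.28 and 0.33. For the summed cardiomyocyte markers r was -0.48 with S100a9, -0.35 with S100a8, -0.34 with S100a6 and -0.24 with S100a11. For the summed endothelial markers it was 0.14, 0.30, 0.48 and 0.48 in the same order.

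**Figure D5:**
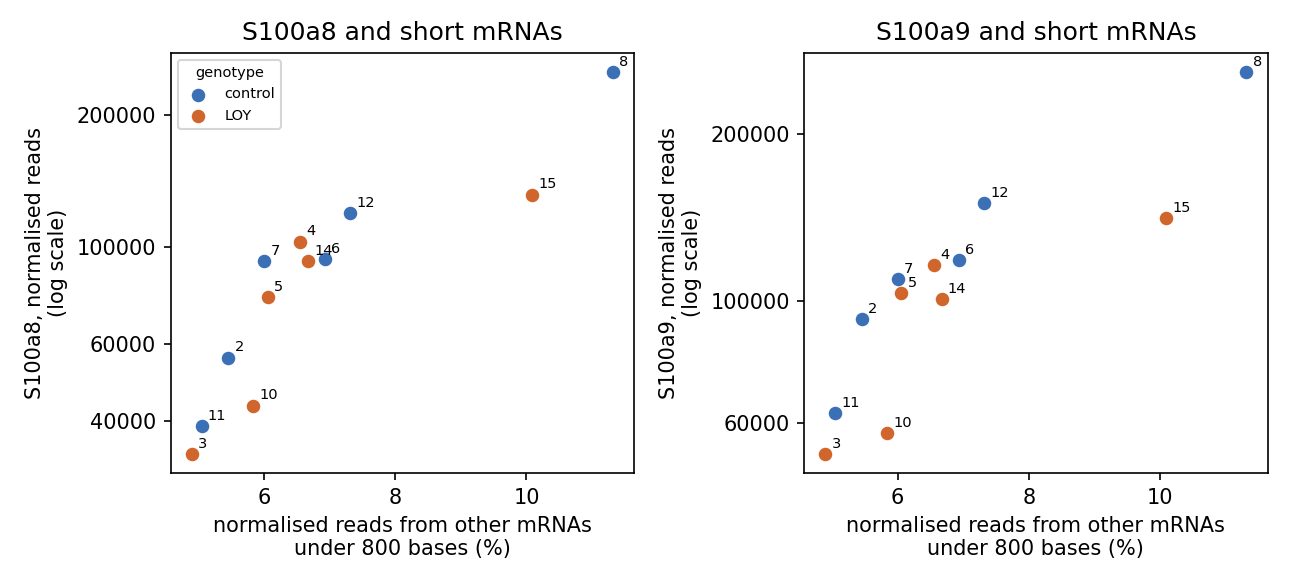
S100a8 (left) and S100a9 (right) in normalised reads (log axis) against the percentage of normalised reads from other mRNAs under 800 bases, 1 point per library with its number, control in blue and LOY in orange. LOY 3 is lowest on both axes and control 8 highest on both, in both panels.

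The 4 abundant S100 genes varied between libraries somewhat more than the median gene of high level. The SD of log2 values within a genotype was 0.85 for S100a8 and 0.63 for S100a9, beside a median of 0.53 over the 223 genes with a mean of at least 5000 normalised reads. Of those genes, 89.2% had a lower SD than S100a8 and 68.2% a lower SD than S100a9. S100a6 (0.66) and S100a11 (0.59) were also above that median. The highest library exceeded the lowest 7.48-fold for S100a8, 4.92-fold for S100a9, 3.95-fold for S100a6 and 3.69-fold for S100a11.

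Of 10 other S100 genes looked for, 3 were in the table, all on chromosome 3, and 0 of 3 were called. S100a1, the S100 protein of heart muscle, had 211 ± 225 normalised reads in control and 297 ± 137 in LOY libraries (SD, n = 6 each), with a log2 fold change of 1.78 (SE 1.21). Its lowest control value was 2.78 normalised reads (control 12), and its log2 fold change in the authors' deposited table was 0.49. S100a13, which takes part in the export of FGF1, had a log2 fold change of -0.10 (SE 0.83). S100a16, at 0 in 2 control and 3 LOY libraries, had -0.84 (SE 2.14). Of 7 genes that fuse an S100 domain to a long repeat protein, 1, Tchh, was in the table. It was too sparse to test, with reads in 1 control library.

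The receptors that read S100 proteins were measured in full, and 0 of 12 were called (5 positive, 7 negative, median log2 fold change -0.04, beside 0.0081 over all genes tested). The 3 with the smallest p were Cd33, a receptor of S100A9 (-0.39, SE 0.28), Cd69, an activation antigen (-1.67, SE 1.30), and Mcam, a cell adhesion molecule (2.59, SE 2.10). Mcam was at 0 in 3 control libraries and 1 LOY library, and the lowest LOY value of Cd69 was 1.03 normalised reads. Named for their role and not by that rule, Tlr4 had 540 ± 499 normalised reads in control and 218 ± 240 in LOY libraries, and Ager, which encodes RAGE, had 77.2 ± 84.9 and 80.1 ± 89.3 (SD, n = 6 each). The TLR4 coreceptor Cd14 was far more abundant, at 15783 ± 5060 and 18412 ± 13734 (SD, n = 6 each).

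Downstream of these receptors, 0 of 14 tested adaptor and kinase genes of the MyD88 and NF-kB pathway were called (8 positive, 6 negative, median log2 fold change 0.12). The smallest p values were those of Nfkb1, the p50 precursor (1.11, SE 0.59), and Irak4, a kinase of the receptor complex (0.97, SE 0.60). Of 15 tested target genes 0 were called (7 positive, 8 negative, median -0.13), with Ccl3, a chemokine (0.43, SE 0.39), and Nlrp3, an inflammasome sensor (-0.50, SE 0.49), at the smallest p. The 10 genes of the NADPH oxidase and of arachidonate metabolism, to which calprotectin delivers its lipid inside the cell, also gave 0 called (5 positive, 5 negative). Their smallest p values were those of Alox5 (0.39, SE 0.45) and Cyba (0.19, SE 0.30).

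Among annexins and other intracellular partners, 0 of 15 tested genes were called (8 positive, 7 negative, median log2 fold change 0.24). Anxa7, an annexin of membrane fusion, had 313 ± 216 normalised reads in control and 89.9 ± 181 in LOY libraries (SD, n = 6 each). The log2 fold change of Anxa7 was -4.59 (SE 1.53) with a limma adjusted p of 0.997, and it was the 1 gene of the 15 with an unadjusted p under 0.05, beside 4.37% of all genes tested. The LOY median of Anxa7 was 5.69 normalised reads and 2 LOY libraries were at 0, so its fold change rests on libraries at or near 0. Cacybp, the S100A6 partner, had 2.88 (SE 1.36), and Sept9 3.15 (SE 1.52). The lowest control values were 0.93 normalised reads for Cacybp and 1.27 for Sept9, so libraries near 0 weigh on these fold changes too. Of the abundant annexins, Anxa1 had 18688 ± 4916 in control and 15990 ± 7766 in LOY libraries (SD, n = 6 each).

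Of 9 tested transcription factors known to act on S100a8 and S100a9, 0 were called (3 positive, 6 negative, median log2 fold change -0.07). Cebpd, which binds C/EBP sites in stress and inflammation, had 2489 ± 1066 normalised reads in control and 1525 ± 1615 in LOY libraries (SD, n = 6 each), a log2 fold change of -1.26 (SE 0.60). Klf5 followed with 2.29 (SE 1.82) and Hif1a with 0.76 (SE 0.63). Klf5 was at 0 in 2 control libraries and 1 LOY library. Adjusted p was 0.997 or above in limma for every gene named in the receptor, signalling, partner and transcription factor lists.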

How the data were processed

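RNA-seq of 12 libraries, grouped by the genotype label, was analysed. Per the labels' protocols, cDNA was made with the SMART-Seq v4 kit and libraries with Nextera XT, without strand or molecular identifiers, so PCR copies count as reads. The limits given for 0 reads cover counting error only, and limma's intervals cover the spread between libraries. The submitters' processing notes name bcl2fastq 2.17, Trimmomatic 0.36, STAR 2.5.2b, featureCounts and Subread 1.5.2, with the builds GRCm38 and mm10. For 11911 genes the authors deposited signal values that are, judged from the values, reads scaled by a library factor. In each library 100.0% of nonzero values were whole multiples of the smallest step (within 0.01 read), and reads were recovered by dividing by it. The authors' deposited table also holds a log2 fold change and a p-value per gene, from a tool not given in the sources used here. For the S100 genes described, these log2 fold changes equal those of DESeq2 on the recovered reads to the digits printed in this text. Symbols that were blank or turned into dates (17 replaced) were taken from GENCODE M21, which matched 11896 identifiers and gave coordinates and lengths.

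limma 3.58.1 (trend, robust empirical Bayes) was fitted on log2(value + 1) to genes reaching 10 normalised reads in 6 or more libraries, with Benjamini-Hochberg adjustment at 0.05. The alternatives were edgeR 4.0.16 and DESeq2 1.42.0 on recovered reads, a fit without the filter, a mean filter of 50, quantile normalization, array weights, pseudocounts of 0.5 and 5, and leaving out each library. The limma fit was tested on simulated data with known changes. Near copies were sought with BLAST 2.17.0+ in GENCODE M21 transcripts, and 5 of 6 genes matched the RefSeq promoter table. The genes and all gene lists were chosen with earlier results of these data known. Beside the 6 genes, the text names the 3 genes of smallest unadjusted p in the lists of other S100 genes, receptors, partners and transcription factors, the 2 of smallest p in the other related lists, and the 5 nearest to S100a9 and S100a6. Anxa1, Anxa2, Tlr4, Ager, Cd14 and Tchh were named outside that rule, after their values were seen.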

Additional observations from a re-analysis of the deposited data

Results flagged for a closer look

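In normalised reads, control 8 lay apart from the other control libraries for 3 of the 6 genes. The measure was the gap to the nearest library divided by the whole range of the group. For S100a4 it had 350 normalised reads while the other 5 control libraries had 0, where any single detected value would stand out in this way. For S100a6 it had 14443, against 3969 to 7858 in the rest. For S100a10 it had 1296, against 0 to 429 in the rest. In all, 14 groups of 6 libraries were looked at and 3 stood out, S100a4 included and all of them in control 8. For a single group chance gives about 1 in 20. The 3 of 14 cannot be set against that rate, because the groups share libraries and several of the genes move together. The gaps were taken on normalised reads, and whether control 8 stands apart on the log2 scale was not tested. Control 8 also had the highest share of reads from short mRNAs.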

How the results depend on the processing

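Calls among the S100 genes were 0 of 5 tested (0 of 6 without a filter) under each alternative run, with a limma, edgeR or DESeq2 adjusted p of 0.916 or above for the members these tested. The count of all genes called was 2 with limma, 303 with DESeq2 and 0 with edgeR (130 at an unadjusted p under 0.05), and 0 without a filter and 0 with a mean of at least 50; leaving out 1 library gave 0 to 4. Quantile normalization put S100a8 at 0.036, S100a6 at 0.065 and S100a11 at 0.050 on the log2 scale, each against a negative main value, and edgeR put S100a6 at 0.0038 and S100a11 at 0.0063. DESeq2 put S100a4 at -1.53, against 0.69 as the difference of mean log2 values. Leaving out 1 library moved S100a8 from -0.58 (without control 11) to -0.04 (without control 8), S100a9 from -0.61 to -0.19 (the same libraries), S100a6 from -0.17 (without control 11) to 0.20 (without control 8), S100a11 from -0.26 (without LOY 15) to 0.11 (without LOY 3), S100a10 from -2.61 (without control 7) to -0.06 (without LOY 4) and S100a4 from -0.18 (without LOY 4) to 2.10 (without control 8). The difference in log2 ratio of the alarmin pair lay between 0.016 and 0.15. The cause of these moves was not tested. No paired analysis was possible because the genotypes share no replicate number.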
